A study of Mus musculus with 18 samples.

Results

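A set of 10 genes that report on protein folding stress was followed in bulk RNA-seq of mouse dorsal root ganglia (DRG), the clusters of sensory neuron cell bodies beside the spinal cord. They were the 7 endoplasmic reticulum (ER) stress genes *Hspa5*, *Hsp90b1*, *Calr*, *Pdia4*, *Xbp1*, *Atf4* and *Ddit3*, and the 3 cytosolic heat shock genes *Hspa1a*, *Hspa1b* and *Dnajb1*. These 10 genes were taken by symbol from the 36737 genes of the count table. L3–L5 DRG came from CD1 mice, an outbred strain, in 3 groups of 6 mice (3 males and 3 females each), with 1 library per mouse. The groups were sham surgery, tibial fracture with vehicle and tibial fracture with protectin DX (PDX, a lipid mediator made from docosahexaenoic acid), and the ganglia of both fracture groups were taken on day 3. The labels name no transgene or deleted gene, and the mice were adult. The fracture was made in the left hind limb around a pin in the marrow cavity. The day of the sham mice was not given in the sources used here, and the study's usual intravenous PDX dose was not tied to these mice in particular.

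Cells meet misfolded protein with separate programs. In the cytosol, heat shock factor 1 switches on the HSP70 genes and their J-domain partners, which hold and refold damaged proteins. In the ER, the unfolded protein response starts from the sensors IRE1, ATF6 and PERK. ATF6 and XBP1 raise the chaperones of the ER lumen, and PERK raises translation of ATF4, which drives CHOP (encoded by *Ddit3*) and amino acid genes. Injured sensory neurons and their glia make much membrane and secreted protein, and both programs are studied in nerve injury and pain.

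Both programs act through short binding sequences in promoters, and those found in 5 of the 10 genes are shown because the results are ordered by these programs. RefSeq promoters of build GRCm38.p6 (250 bases before to 50 bases after a start) were found for all 10 genes. They were searched on both strands for the ER stress element, CCAAT and CCACG with any 9 bases between them, to which ATF6 and NF-Y bind, and for the heat shock element written as GAANNTTC or TTCNNGAA. The ER stress element stood in 39 of 32851 promoters (0.119%), GAANNTTC in 2582 (7.86%) and TTCNNGAA in 2799 (8.52%). The capitals below mark the element, or its reverse complement where it lies on the other strand.
Hspa5, chr2:34772013-34772055, plus strand: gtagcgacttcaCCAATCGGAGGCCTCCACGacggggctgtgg
Calr, chr8:84847063-84847105, minus strand: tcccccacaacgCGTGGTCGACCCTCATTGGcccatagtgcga
Hsp90b1, chr10:86705521-86705668, minus strand: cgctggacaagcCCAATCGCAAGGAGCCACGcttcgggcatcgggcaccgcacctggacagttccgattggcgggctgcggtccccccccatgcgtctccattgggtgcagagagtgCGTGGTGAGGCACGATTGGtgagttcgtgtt
Hspa1a, chr17:34972241-34972272, minus strand: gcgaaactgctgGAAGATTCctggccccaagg
Hspa1b, chr17:34959323-34959354, minus strand: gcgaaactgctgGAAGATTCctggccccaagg
The ER stress element lay 65 to 47 bases before the start of *Hspa5* and 162 to 144 bases before that of *Calr*, and *Hsp90b1* held 2 copies. The heat shock element lay 104 to 97 bases before the start of *Hspa1a* and of *Hspa1b*, in the same 32 bases. *Pdia4*, *Xbp1*, *Atf4*, *Ddit3* and *Dnajb1* held none of these 3 patterns in this window. A match describes the letters only.

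*Hspa1a* and *Hspa1b*, neighbours on chromosome 17 that encode the inducible HSP70, are near copies. In build mm10, *Hspa1a* lies at chr17:34969190-34972156 and *Hspa1b* at chr17:34956436-34959238, both on the minus strand. Their 250 bases before the start were 98.8% identical and their reading frames 99.4%, while the stretch after the reading frame was 43.9% identical. Reads from the shared stretch can fall to either gene, so the separate values of *Hspa1a* and *Hspa1b* are uncertain. The reading frame of *Hspa1a* shared 58.3% of its bases with that of *Hspa5*, the HSP70 of the ER.

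Library totals lay between 63235040 and 82824942 counts. The fewest counts of any member in a library were 1110, for *Hspa1a*, so depth did not limit the detection of any member. Levels below are CPM, counts scaled to library size by TMM over all 18 libraries, and each range runs over the 6 libraries of a group. Changes are log2 fold changes from edgeR's quasi-likelihood test with sex in the model, with p-values adjusted over all genes tested (Benjamini-Hochberg) and calls at an adjusted p under 0.05.

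All 10 genes were expressed in every library. In FPKM, which allows levels of different genes to be compared, *Calr* was the most abundant in sham DRG at 117 ± 6.69 (SD, n = 6). *Calr* encodes calreticulin, a calcium-binding chaperone for glycoproteins. Next came *Hsp90b1* (the ER HSP90, GRP94) at 81.6 ± 6.42 FPKM and *Hspa5* (BiP) at 67.3 ± 9.64 FPKM. The ranges of *Hsp90b1* and *Hspa5* overlapped. *Atf4* stood at 52.6 ± 3.52 FPKM, below every *Hspa5* value. *Pdia4* (a disulfide isomerase) at 23.2 FPKM, *Dnajb1* (the HSP40 that hands clients to HSP70) at 21.8, *Xbp1* at 21.2 and *Hspa1b* at 18.2 overlapped in their ranges. *Hspa1a* stood at 12.5 and *Ddit3* at 11.5 FPKM, and these overlapped too. *Xbp1* protein activity depends on splicing of its mRNA, and *Atf4* is controlled mainly in translation, so gene counts do not show how active either was.

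**Figure D1:**
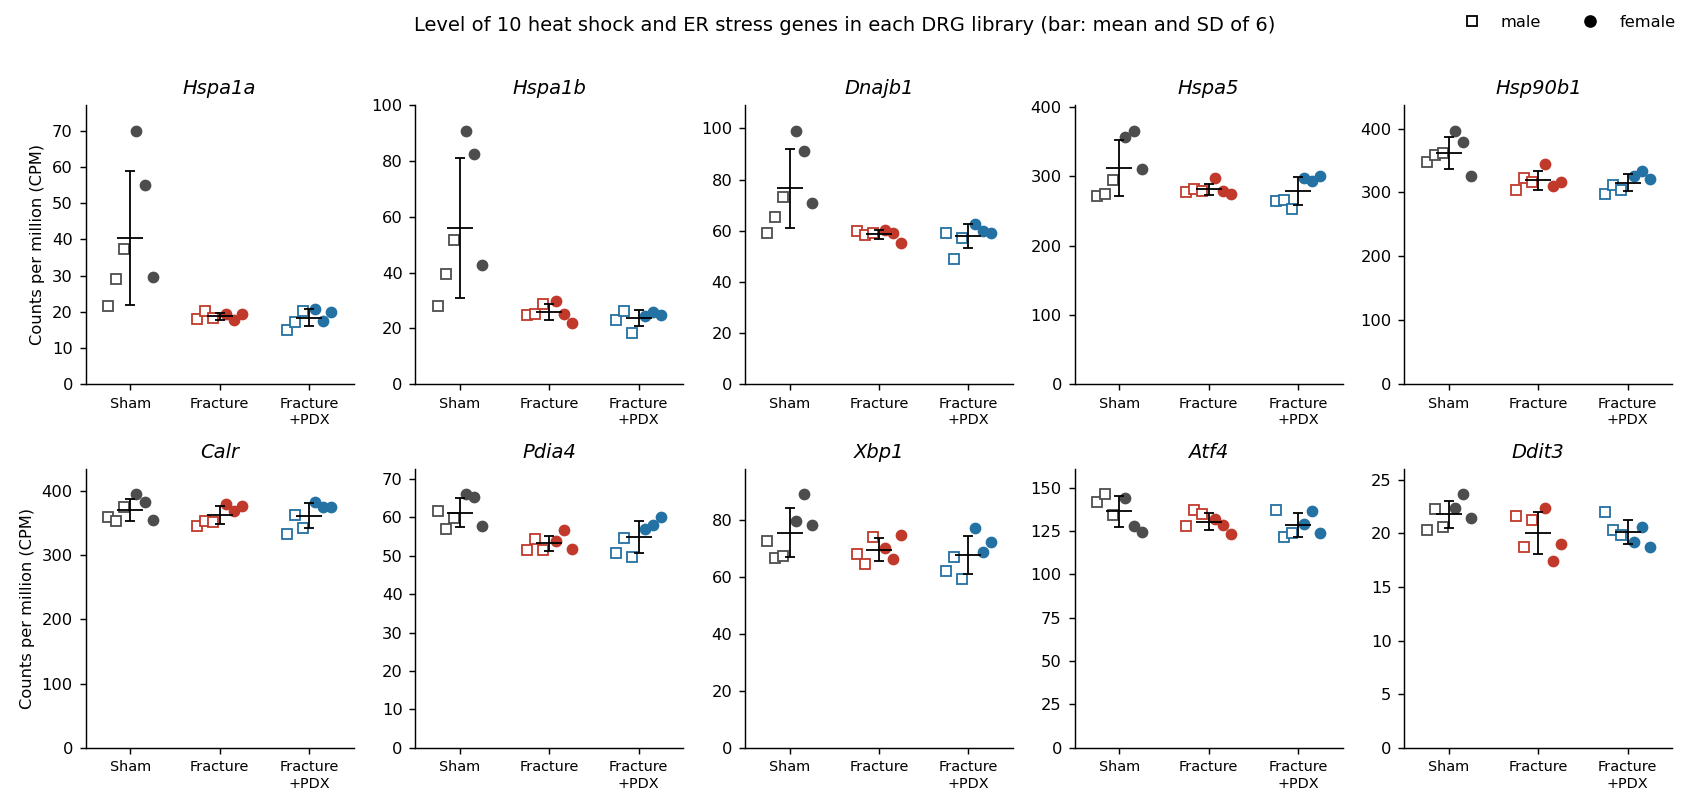
CPM of each gene (y axes from 0) in every library by group. Open squares are males, filled circles females, and the bar is the mean with the SD of 6 libraries. For *Hspa1a* all 6 sham libraries lie above all 6 fracture libraries, and 2 sham females stand highest.

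The comparison of fracture with sham asks how the ganglia answered the injury. After fracture, 1 of the 3 cytosolic heat shock genes (*Hspa1a*) and 2 of the 7 ER genes (*Hsp90b1* and *Pdia4*) fell, and the other 7 genes were not called. Of all 20659 genes tested, 2.92% were called and 1.83% were called lower. All 10 log2 fold changes lay below 0, as did those of 49.3% of all genes tested. The median log2 fold change was -1.05 over the 3 cytosolic genes, -0.12 over the 7 ER genes and 0.00 over all genes. In bulk tissue, fewer cells that express a gene and less RNA per cell cannot be told apart.

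*Hspa1a* ranged from 21.5 to 70.1 CPM in sham DRG (median 33.5) and from 17.7 to 20.1 CPM in fracture DRG (median 18.8). The groups did not overlap, as was so, with fracture lower, for 1.47% of all genes. *Hspa1a* fell by 51.7% (log2 fold change -1.05, SE 0.235, adjusted p = 0.0451). *Hspa1b* ranged from 28.0 to 90.9 CPM in sham DRG (median 47.2) and from 21.7 to 29.6 CPM in fracture DRG (median 25.0). Here 1 sham male, at 28.0 CPM, lay within the fracture range. Its log2 fold change was -1.05 (SE 0.249) and missed the threshold (adjusted p = 0.0561). *Dnajb1* ranged from 59.2 to 99.1 CPM in sham DRG (median 72.0) and from 55.4 to 60.3 CPM in fracture DRG (median 59.1). The groups touched at the same sham male, and the log2 fold change was -0.37 (SE 0.095, adjusted p = 0.0603).

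Among the ER chaperones, *Pdia4* ranged from 57.0 to 66.1 CPM in sham DRG (median 60.8) and from 51.4 to 56.6 CPM after fracture (median 52.7). All 6 fracture libraries lay below all 6 sham libraries, and *Pdia4* fell by 13.1% (log2 fold change -0.20, SE 0.0416, adjusted p = 0.0231). *Hsp90b1* ranged from 326 to 397 CPM in sham DRG (median 360.3) and from 304 to 345 CPM after fracture (median 316). Of the fracture libraries, 5 lay below all sham libraries, and *Hsp90b1* fell by 11.8% (log2 fold change -0.18, SE 0.0424, adjusted p = 0.0375). *Hspa5*, the chaperone that keeps the ER sensors silent, ranged from 272 to 366 CPM in sham DRG (median 303) and from 274 to 297 CPM after fracture (median 279). The fracture values lay inside the sham range, and its log2 fold change of -0.14 (SE 0.055) was not called (adjusted p = 0.182). *Calr*, at 353 to 395 CPM in sham and 346 to 379 CPM in fracture DRG, had a log2 fold change of -0.03 (95% interval -0.09 to 0.03, adjusted p = 0.627).

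The 3 transcription factors of the response were not called. *Xbp1*, at 66.6 to 89.1 CPM in sham and 64.4 to 74.7 CPM in fracture DRG, had a log2 fold change of -0.11 (95% interval -0.24 to 0.01, adjusted p = 0.305). *Atf4*, at 125 to 146 CPM in sham and 123 to 137 CPM in fracture DRG, had one of -0.06 (95% interval -0.15 to 0.02, adjusted p = 0.418). *Ddit3*, which encodes the death-promoting factor CHOP, lay at 20.3 to 23.7 CPM in sham and 17.4 to 22.4 CPM in fracture DRG, with a log2 fold change of -0.12 (95% interval -0.26 to 0.03, adjusted p = 0.382). The ranges of the groups overlapped for all of them.

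The size of these differences rested in large part on 2 sham libraries, females 1 and 2. In this order, they held 70.1 and 54.9 CPM of *Hspa1a* against 21.5 to 37.4 CPM in the other 4 sham libraries, and 90.9 and 82.5 CPM of *Hspa1b* against 28.0 to 51.7 CPM. *Dnajb1* was also highest there, at 99.1 and 91.2 CPM against 59.2 to 73.1 CPM, and so was *Hspa5*, at 357 and 366 CPM against 272 to 311 CPM. The called *Hsp90b1*, at 397 and 379 CPM against 326 to 362 CPM, and *Pdia4*, at 66.1 and 65.2 CPM against 57.0 to 61.7 CPM, shared the order. In all, both libraries lay above the other 4 in 9 of the 10 genes. *Atf4* was the exception, with 144 and 128 CPM in the 2 libraries against 125 to 146 CPM in the others. The share of all genes with this order was not computed, so the order cannot be called particular to these genes. Without these 2 libraries, an alternative chosen after the data were seen, none of the 10 genes was called by edgeR and 23 of all genes were. The log2 fold change was then -0.65 for *Hspa1a* (adjusted p = 0.0767), -0.65 for *Hspa1b*, -0.20 for *Dnajb1*, -0.16 for *Pdia4* (adjusted p = 0.145), -0.13 for *Hsp90b1* (adjusted p = 0.2) and -0.05 for *Hspa5*. That the 4 remaining sham libraries lay above every fracture library in *Hspa1a* and *Pdia4* follows from the lack of overlap given above. It adds no support.

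Single libraries also carried calls in this comparison. When each of the 12 libraries was left out in turn, *Pdia4* was called in 9 of the 12 fits, *Hsp90b1* in 3 and *Hspa1a* in 2. *Pdia4* lost its call without sham male 3, sham female 2 or fracture male 3. In these fits *Hspa1a*, *Hspa1b* and *Dnajb1* were called only without sham male 1 or without sham female 3, and *Hsp90b1* only without either of these or without fracture female 1. The log2 fold changes of all 10 genes stayed below 0 in every fit.

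**Figure D2:**
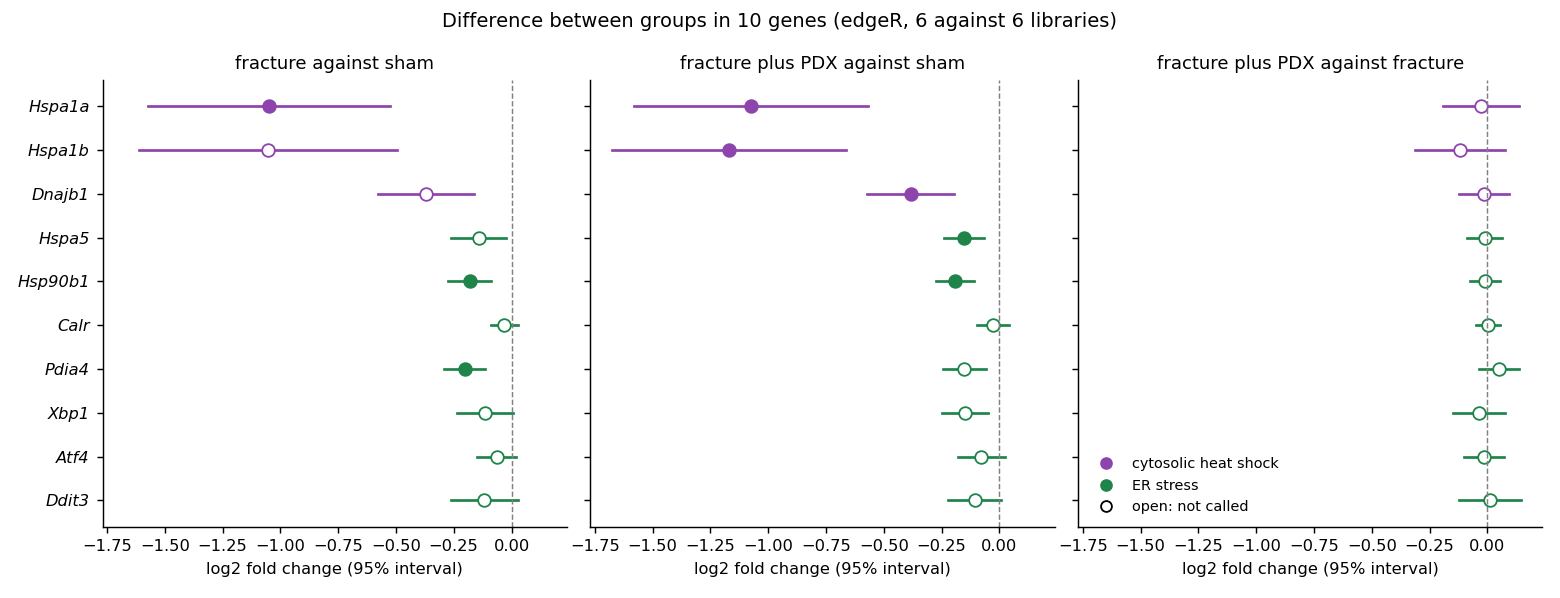
Log2 fold change (x axis) with its 95% interval for each gene in the 3 comparisons, filled where called at an adjusted p under 0.05. The 3 cytosolic genes lie farthest from 0 in the comparisons with sham, and all intervals cross 0 between fracture plus PDX and fracture.

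In sham DRG the cytosolic genes varied more between mice than most genes did. The SD of log2 CPM within the sham group was 0.63 for *Hspa1a*, 0.65 for *Hspa1b* and 0.28 for *Dnajb1*, while the median of 12379 genes of at least 5 CPM was 0.10. Of these genes, 98.6% had a smaller sham SD than *Hspa1a* and 92.3% a smaller one than *Dnajb1*. In the fracture group the SD was 0.07 for *Hspa1a*, 0.16 for *Hspa1b* and 0.04 for *Dnajb1*. *Hspa5* also had 0.19 in sham and 0.04 after fracture. For *Calr* the SD was 0.07 in sham and 0.06 after fracture, and *Ddit3* went the other way, with 0.08 in sham and 0.14 after fracture. The highest sham library held 3.26 times the *Hspa1a* of the lowest, against 1.14 times in fracture DRG. Much of this sham spread came with females 1 and 2. Over the other 4 sham libraries, an alternative chosen after the data were seen, the SD was 0.33 for *Hspa1a*, 0.37 for *Hspa1b*, 0.14 for *Dnajb1* and 0.09 for *Hspa5*, beside a median of 0.10 over all these genes, and the highest library held 1.74 times the *Hspa1a* of the lowest.

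**Figure D3:**
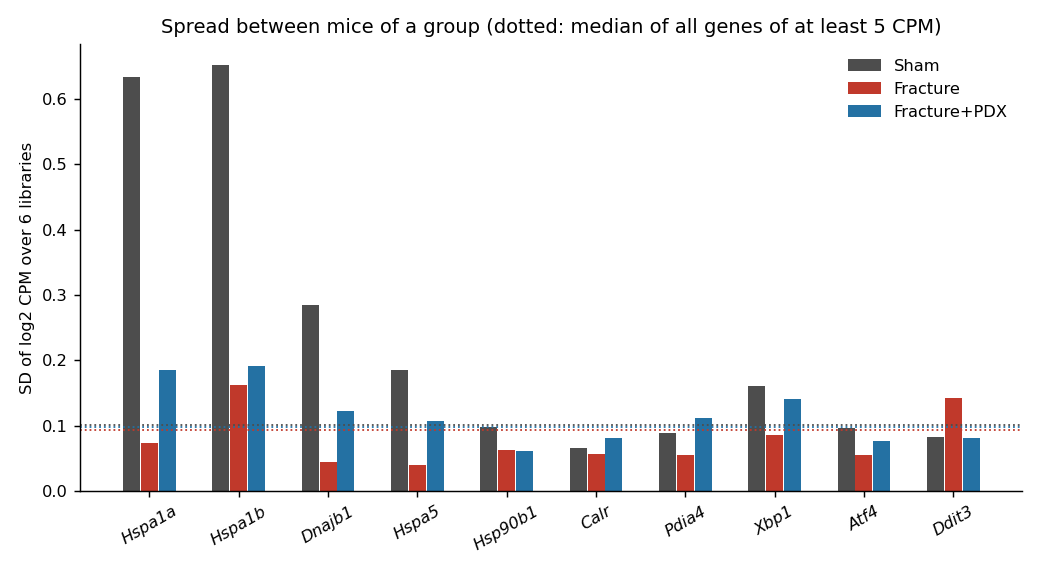
SD of log2 CPM over the 6 libraries of each group (y axis) for the 10 genes, with the median of 12379 genes as dotted lines. The sham bars of *Hspa1a* (0.63) and *Hspa1b* (0.65) are the tallest, and without sham females 1 and 2 these SDs were 0.33 and 0.37.

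What the treatment changed in injured mice was asked by setting fracture plus PDX against fracture. None of the 10 genes was called by edgeR or by DESeq2. edgeR called 0 of 20562 genes (0%), with 1113 (5.41%) at an unadjusted p under 0.05 and none of the 10 among them. DESeq2 called 10 genes in all. The median log2 fold change was -0.03 over the 3 cytosolic genes and -0.01 over the 7 ER genes. *Hspa1b*, at 18.3 to 26.1 CPM with PDX (median 24.7), had the value farthest from 0, -0.12 (95% interval -0.31 to 0.08, adjusted p = 0.949). The value of *Hspa1a* was -0.03 (95% interval -0.19 to 0.14) and that of *Dnajb1* -0.01 (95% interval -0.12 to 0.09). Among the ER genes, *Pdia4* had 0.05 (95% interval -0.04 to 0.14), *Hspa5* -0.01 (95% interval -0.09 to 0.06) and *Calr* 0.00 (95% interval -0.05 to 0.05). The intervals of *Atf4* (-0.10 to 0.07) and *Ddit3* (-0.12 to 0.15) also crossed 0. These intervals bound the differences and do not show that the groups were alike.

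Fracture plus PDX was also compared with sham, using the same 6 sham libraries as above, so the values stand side by side and are not a second test. Of the 10 genes, 5 were called, all lower, where 4.5% of 20574 genes were called and 2.32% were called lower. All 3 cytosolic genes fell. *Hspa1b*, at 18.3 to 26.1 CPM against 28.0 to 90.9 CPM in sham DRG, fell by 55.6% (log2 fold change -1.17, SE 0.228, adjusted p = 0.0202). *Hspa1a*, at 14.9 to 20.8 CPM, fell by 52.6% (log2 fold change -1.08, SE 0.228, adjusted p = 0.0276). Neither overlapped with sham, and 1.51% of all genes were lower without overlap. *Dnajb1*, at 49.1 to 62.6 CPM, overlapped with sham and fell by 23.4% (log2 fold change -0.38, SE 0.0866, adjusted p = 0.0274).

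Of the ER genes, *Hsp90b1* fell by 12.5% (log2 fold change -0.19, SE 0.0391, adjusted p = 0.0147), at 298 to 333 CPM, with 5 libraries below all sham libraries. *Hspa5* fell by 10.2% (log2 fold change -0.15, SE 0.04, adjusted p = 0.0448), at 252 to 300.4 CPM, with the groups overlapping. The log2 fold changes were -0.15 for *Pdia4* (adjusted p = 0.0647) and -0.15 for *Xbp1* (adjusted p = 0.0912), and neither was called. Those of *Atf4* (-0.08), *Ddit3* (-0.11) and *Calr* (-0.03) were not called either. *Hsp90b1* was called in all 12 fits with a library left out, *Hspa1b* in 9, *Dnajb1* in 6, *Hspa1a* in 4 and *Hspa5* in 2. Without sham females 1 and 2, *Hspa1a* (-0.70, adjusted p = 0.0485) and *Hspa1b* (-0.80, adjusted p = 0.0429) were called, among 300 genes in all against 925 with all libraries, and *Dnajb1* (-0.24, adjusted p = 0.112), *Hsp90b1* (-0.15, adjusted p = 0.119) and *Hspa5* (-0.09, adjusted p = 0.247) were not. In the same comparison 11 of 13 placenta markers, RNAs that DRG should lack, were called lower (median log2 fold change -2.21). So were 2 of 8 endothelial, 1 of 10 macrophage and 1 of 9 satellite glia markers. Called higher were 3 of 14 sensory neuron and 2 satellite glia markers. All 9 Schwann cell (-0.19), 8 fibroblast (-0.18) and 8 erythroid (-0.24) markers lay below 0, and 9 of 10 neutrophil (0.28) and 8 of 11 muscle (0.23) markers above, with none called. The part of these RNAs in these 5 calls was not tested.

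In 3 against 3 mice within a group, some of the 10 genes stood higher in females without overlap. In fracture plus PDX DRG, *Hspa5* lay at 293 to 300.4 CPM in females and 252 to 265 CPM in males, and the sexes did not overlap. The same order without overlap was seen there for *Hsp90b1*, *Calr*, *Pdia4* and *Xbp1*, which makes 5 of the 10 genes, where 6.21% of 21340 genes had it. In sham DRG it was seen for *Hspa5* (311 to 366 CPM in females, 272 to 295 CPM in males) and *Xbp1* (78.2 to 89.1 CPM in females, 66.6 to 72.6 CPM in males), where 7.19% of genes had it. In fracture DRG it was seen for *Calr* alone, where 6.68% of genes had it.

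Over all 18 libraries, with group in the model, none of the 10 genes was called for sex by edgeR, where 0.291% of genes were. At an unadjusted p under 0.05 stood 5 of the 10 genes, where 10.1% of all genes did. The log2 difference of females minus males was 0.17 for *Hspa5* (SE 0.0387, adjusted p = 0.0654), 0.17 for *Xbp1* (SE 0.0442, adjusted p = 0.121) and 0.10 for *Calr* (SE 0.0228, adjusted p = 0.0837). DESeq2 called these 3 genes, among 327 in all against 62 with edgeR, with adjusted p-values of 0.00625, 0.0256 and 0.00911. The cytosolic genes had the values farthest from 0, 0.33 for *Hspa1b* (SE 0.172, adjusted p = 0.551), 0.33 for *Hspa1a* (SE 0.163, adjusted p = 0.53) and 0.17 for *Dnajb1* (SE 0.0691, adjusted p = 0.375). Those of *Atf4* (-0.04) and *Ddit3* (-0.02) lay below 0. Of the other ER chaperones and folding enzymes, 14 lay above and 8 below 0, and of the genes of ER-associated degradation and export, 5 above and 18 below. Of the 32 further cytosolic heat shock genes, 26 lay above and 6 below 0 (median 0.05), beside 10763 of all 21340 genes above 0 (median 0.00). All 11 skeletal muscle markers also had a log2 difference above 0 (median 1.18), with sums of 17.7 to 1307 CPM over the libraries. So did 10 of 10 macrophage markers (median 0.14), 8 of 9 glucocorticoid-responsive genes (0.23), 7 of 8 fibroblast markers (0.11), 7 of 8 endothelial markers (0.03) and 6 of 8 plasma and B cell markers (0.29), while all 8 erythroid markers lay below 0 (-0.18). None of these genes was called for sex, and their part in the result was not tested.

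Neither interaction of sex with a treatment was called for any of the 10 genes. For fracture, the largest values were those of the cytosolic genes, -0.90 for *Hspa1b* (SE 0.412, adjusted p = 0.699), -0.81 for *Hspa1a* (SE 0.4, adjusted p = 0.732, and -0.53 without sham female 1) and -0.43 for *Dnajb1* (SE 0.145, adjusted p = 0.616), and *Hspa5* had -0.29 (SE 0.079, adjusted p = 0.517). Mean *Hspa1b* was 72.1 ± 25.7 CPM in sham females and 39.7 ± 11.9 CPM in sham males (SD, n = 3), and 25.5 and 26.2 CPM in fracture females and males. For PDX, the largest values were 0.21 for *Hspa1b* (SE 0.178, adjusted p = 0.998) and 0.19 for *Xbp1* (SE 0.0952, adjusted p = 0.998). *Hspa5* had 0.18 (SE 0.0525, adjusted p = 0.998), *Dnajb1* 0.17 and *Hspa1a* 0.16. edgeR called 0 of 20659 genes (0%) for the fracture interaction, with 7.2% at an unadjusted p under 0.05, *Hspa5*, *Xbp1* and *Dnajb1* among them. It called 1 of 20562 genes (0.00486%) for the PDX interaction, with 4.14% at an unadjusted p under 0.05, *Hspa5* alone of the 10 among them. Marker lists moved with these terms too. For fracture, all 11 muscle markers lay below 0 (median interaction -3.72), and all 9 Schwann cell (0.70), 13 placenta (0.83), 10 neutrophil (0.55) and 8 erythroid (0.56) markers above 0. For PDX, all 11 muscle markers lay above 0 (2.79), and all 13 placenta (-1.87) and 9 Schwann cell (-0.28) markers below 0. Their part in the interactions was not tested.

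Of the 140 other genes tested in 7 lists of both programs, 8 (5.71%) were called between fracture and sham, 3 higher and 5 lower, beside 2.92% of all genes (1.09% higher and 1.83% lower). The calls of these lists were not repeated without sham females 1 and 2. Without those libraries 23 of all genes were called after fracture, against 603 with them. Of 22 further ER chaperones and folding enzymes, 1 was called: *Creld2*, a secreted ER stress protein, fell from 15.6 ± 1.9 to 12.4 ± 1.17 CPM (log2 fold change -0.33, adjusted p = 0.0451). The list's median was -0.06 and 19 of the 22 genes lay below 0. *Creld2* also holds the ER stress element in its promoter, shown here because it is the called gene of this list, with the capitals as above.
Creld2, chr15:88819508-88819550, plus strand: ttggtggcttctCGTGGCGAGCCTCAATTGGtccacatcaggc
Of 23 genes of ER-associated degradation and export, 2 were called, both lower. *Herpud1*, which organises the degradation complex, fell from 65.4 ± 7.08 to 54.5 ± 1.54 CPM (log2 fold change -0.26, adjusted p = 0.0267). *Derl3*, part of the channel that moves proteins out of the ER, fell from 1.97 to 1.09 CPM (log2 fold change -0.85, adjusted p = 0.037). The list's median was -0.03. The search for the ER stress element gave no match for *Herpud1*. *Derl3* and the called *Creb3l2* (below) were not searched, so the *Creld2* match does not stand for the called genes.

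Among 17 sensors and regulators of the response, 1 was called: *Creb3l2*, an ER-bound transcription factor, fell (log2 fold change -0.22, adjusted p = 0.0396), and the median was -0.03. Of 32 ATF4 and CHOP target genes tested, 2 were called, both higher. *Atf3* rose 3.13-fold, from 12.9 ± 1.09 to 40.5 ± 17.3 CPM (log2 fold change 1.65, adjusted p = 0.0141). *Atf3* is also the classic injury gene of DRG neurons. *Gars*, the glycyl-tRNA synthetase, rose from 267 ± 8.14 to 299 ± 5.8 CPM (log2 fold change 0.16, adjusted p = 0.00978). The median of this list was -0.00, with 15 genes above and 17 below 0.

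Of 32 further cytosolic heat shock genes, 1 fell and 1 rose. *Hsph1*, the HSP110 that reloads HSP70, fell from 232 ± 27.5 to 192 ± 3.72 CPM (log2 fold change -0.27, adjusted p = 0.0251). The promoter of *Hsph1* holds TTCNNGAA, printed for its place beside the HSP70 genes.
Hsph1, chr5:149636350-149636381, minus strand: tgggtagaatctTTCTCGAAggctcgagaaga
*Dnajb5*, another HSP40, rose from 17.3 ± 0.532 to 19.8 ± 0.958 CPM (log2 fold change 0.20, adjusted p = 0.0473). The list's median was 0.02, and 19 of its genes lay above 0. None of 5 heat shock factors tested and none of 10 mitochondrial chaperones was called, with medians of 0.02 and 0.02.

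**Figure D4:**
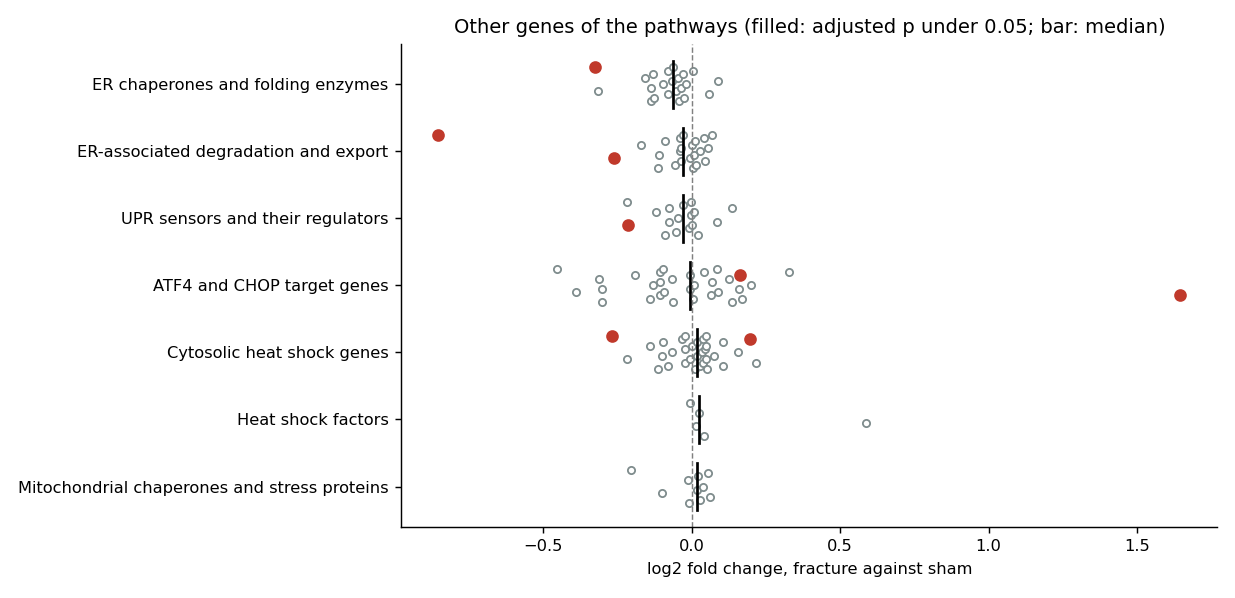
Log2 fold change of fracture against sham (x axis) for the other genes of 7 lists, filled where called, with the list's median as a bar. *Atf3* lies farthest right at 1.65 and *Derl3* farthest left at -0.85, and the medians lie between -0.06 and 0.02.

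No gene of these 7 lists was called between fracture plus PDX and fracture. Between fracture plus PDX and sham, *Creld2* (log2 fold change -0.38), *Herpud1* (-0.28), *Derl3* (-1.08) and *Hsph1* (-0.30) fell, and *Atf3* (2.21), *Gars* (0.17), *Slc7a1* (0.18, a carrier of basic amino acids), *Hspb1* (0.22, the small heat shock protein HSP27) and *Bag3* (0.11, an HSP70 co-chaperone) rose. These were 9 of the 140 genes (6.43%), 5 higher and 4 lower, beside 2.17% and 2.32% of all genes. The medians of the lists lay between -0.05 and 0.06.

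The sums of the other marker lists were compared between groups too. Between sham and fracture DRG they overlapped for all lists but the sensory neuron markers and the immediate early genes, and between sham and fracture plus PDX DRG for all but the placenta markers. The counts of called markers stand beside 1.09% of all genes called higher and 1.83% called lower after fracture. Defining neuronal markers were abundant in every library. The 14 sensory neuron markers summed to 12922 to 13787 CPM in sham and 14344 to 15118 CPM in fracture DRG, with 4 of 14 called higher, and to 13623 to 15488 CPM in fracture plus PDX DRG. The 8 fibroblast markers summed to 1792 to 2362 CPM in sham and 1672 to 1919 CPM in fracture DRG, with 2 called lower, and the 8 endothelial markers to 157 to 208 and 142 to 163 CPM, with 2 called lower. Of 10 macrophage markers 2, and of 10 neutrophil markers 1, were called lower. All the macrophage (median log2 fold change -0.23), neutrophil (-0.82), fibroblast (-0.23) and erythroid (-0.53) markers lay below 0 between fracture and sham. Between fracture plus PDX and fracture, all 10 neutrophil markers lay above 0 (median 1.11), with none called. Between fracture and sham, none of the 9 satellite glia markers was called lower (1 higher), and none of the Schwann cell, plasma and B cell or erythroid markers was called. The plasma and B cell markers, cells that hold much *Xbp1* and *Derl3*, summed to 32.5 to 62.1 CPM in sham and 33.4 to 50.6 CPM in fracture DRG, with *Tnfrsf17* at 0 in 5 of the 18 libraries. Most of that sum was *Sdc1*, at a mean of 30.7 CPM. Of the 8 of these 9 markers that were tested, 7 lay below 0 between fracture and sham (median log2 fold change -0.56) and 7 between fracture plus PDX and sham (median -0.58), and their part in the values of *Xbp1* and *Derl3* was not tested.

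Placenta markers, which DRG should lack, summed to 228 to 732 CPM in sham, 36.3 to 345 CPM in fracture and 34.9 to 179 CPM in fracture plus PDX DRG, in males as well as females. Of these 13 markers, 3 were called lower between fracture and sham (median log2 fold change -1.77) and 11 between fracture plus PDX and sham (median -2.21), where 2.32% of all genes were called lower. Skeletal muscle markers summed to 31.4 to 669 CPM in sham, 59.2 to 1307 CPM in fracture and 17.7 to 611 CPM in fracture plus PDX DRG. None of the 11 was called, while all lay above 0 between fracture and sham (median log2 fold change 2.02) and all below 0 between fracture plus PDX and fracture (median -1.87). Sham female 2 held the most placenta (732 CPM) and muscle (669 CPM) RNA of the sham libraries, while sham female 1, at 453 and 151 CPM, lay inside the range of the others for placenta. Sham female 1 was the lowest of all 18 libraries in Schwann cell markers (10818 CPM, the next sham library at 15594) and in satellite glia markers (3560 CPM, the next at 4151). Immediate early genes, which respond within minutes to activity and handling, summed to 408 to 473 CPM in sham and 367 to 403 CPM in fracture DRG, and to 387 to 433 CPM in fracture plus PDX DRG. After fracture, 17 of these 18 genes lay below 0 and 3 fell: *Zfp36* (log2 fold change -0.66), *Btg2* (-0.54) and *Klf2* (-0.71). Of 15 clock genes 2 fell, *Nr1d1* (-0.67) and *Dbp* (-0.53), and of 9 glucocorticoid-responsive genes none was called. The part of these RNAs in the results for the 10 genes was not tested.

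Across the 18 libraries, the 10 genes were compared in pairs on deviations of log2 CPM from the group means, with permutations within groups and adjustment over 7 pairs. *Hspa5* and *Hspa1b*, the HSP70s of the ER and the cytosol, varied together (Pearson r = 0.863, Spearman rho = 0.754, permutation p = 0.00053 and 0.00286, adjusted p = 0.00371 for r). The r was 0.861 for *Hspa1a* with *Hspa1b*, 0.854 for *Hspa1b* with *Dnajb1*, 0.774 for *Hspa5* with *Xbp1*, 0.728 for *Hspa5* with *Pdia4* and 0.66 for *Hspa5* with *Hsp90b1*, with permutation p-values between 0.00187 and 0.0131 (adjusted p between 0.00654 and 0.0153). The rho of these 5 pairs was 0.552, 0.692, 0.756, 0.736 and 0.676, with permutation p-values of 0.0568, 0.00909, 0.0027, 0.00404 and 0.00798 (adjusted p of 0.0662, 0.0127, 0.00943, 0.00943 and 0.0127). *Atf4* and *Ddit3*, factor and target, had r = 0.178 and rho = 0.17 (permutation p = 0.459 and 0.501).

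All 6 relations lost their call without sham females 1 and 2, and r fell short of its earlier value in each. Without the 2 libraries whose level of the gene named first was most distant from its median, which were these 2 for every pair that began with *Hspa5*, *Hspa1a* or *Hspa1b*, r was 0.627 for *Hspa5* with *Hspa1b* and between 0.40 and 0.66 for the other 5 pairs. The adjusted permutation p-values of these 6 pairs were then between 0.0844 and 0.202. Within sex and group, r was 0.903 for *Hspa5* with *Hspa1b* (adjusted permutation p = 0.0272), 0.805 for *Hspa5* with *Hsp90b1* and 0.26 for *Hspa5* with *Xbp1*. The other 6 pairs were not below the threshold there.

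**Figure D5:**
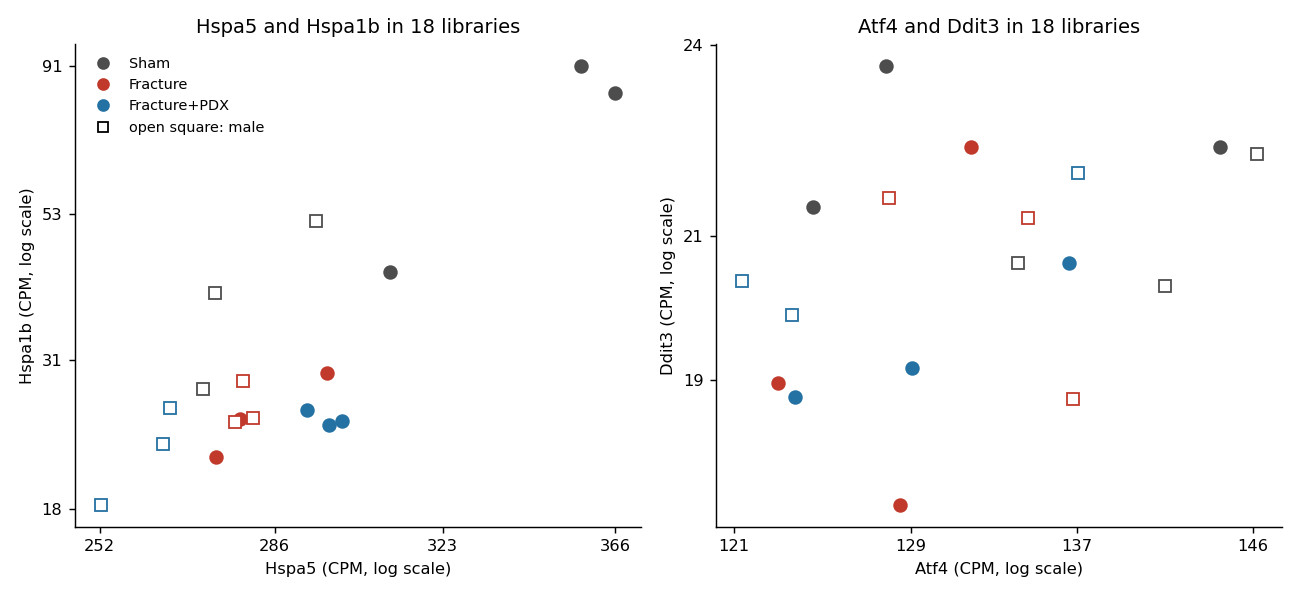
CPM of *Hspa5* and *Hspa1b* (left) and of *Atf4* and *Ddit3* (right) in the 18 libraries, on log axes, coloured by group, with males as open squares. Sham females 1 and 2 stand alone at the upper right of the left panel, at 357 and 366 CPM of *Hspa5* and 90.9 and 82.5 CPM of *Hspa1b*.

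Among 12379 genes of at least 5 CPM, the genes whose deviations were most like those of *Hspa5* over the 18 libraries were *Slc5a3* (r = 0.933), *Apba3* (0.879), *Hspa1b* (0.863), *Dnajb1* (0.858) and *Ppid* (0.848). For *Hspa1b* they were *Hspa5* (0.863), *Hspa1a* (0.861), *Dnajb1* (0.854), *Hsph1* (0.832) and *Slc5a3* (0.832). Without sham females 1 and 2 the r of *Slc5a3* with *Hspa5* was 0.862, and that of *Hsph1* with *Hspa1b* 0.347. For *Atf4* they were *Cdk11b* (0.818), *Rgs19* (0.81), *Tmem268* (0.803), *Gm7666* (0.788) and *Dek* (0.787), none of them among the 10 genes. The 18 libraries include these 2 sham mice in every relation, so these r values are descriptions. The middle 95% of all genes had r between -0.56 and 0.56 with *Hspa5* and between -0.48 and 0.53 with *Hspa1b*.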

How the data were processed

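Per the submitters' processing notes, paired-end reads of stranded poly(A) libraries passed cutadapt 1.10 and FastQC, with HISAT2 and StringTie named for later steps and mm10 as the build. The counting program and annotation release are not given in the sources used here. The authors deposited whole-number counts per gene without normalization, and FPKM values scaled by transcript length and mapped fragments. Columns with the prefix Con were taken as sham, the remaining group, by matching sex and number. The 10 genes matched 11 entries by symbol. The extra *Ddit3* entry held 1 count and was not used. The members and gene lists were chosen with earlier results of these data known.

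The tests used edgeR 4.0.16 in R 4.3.3 (filterByExpr, minimum count 10 and minimum total 15, TMM, robust quasi-likelihood fits, sex and group in the model) on the 12 libraries of each comparison, with Benjamini-Hochberg adjustment over all genes tested. Log2 CPM used a prior count of 2. Correlations used 100000 permutations within groups. The fits were tested on simulated counts. Alternatives were DESeq2 1.42.0, upper-quartile scaling, other count filters, no sex term, a replicate block, all 18 libraries in 1 fit, limma 3.58.1 on log2 FPKM, and each library left out. Named are all 10 genes, the 3 genes with the smallest p-value per list and direction among those called, and the 5 genes most like *Hspa5*, *Atf4* and *Hspa1b*. The mice are separate animals, and the sources used here do not say whether the groups were collected or sequenced together. Sequences are from RefSeq (GRCm38.p6) promoters and, for identity, GENCODE transcripts.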

Additional observations from a re-analysis of the deposited data

Results flagged for a closer look

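In fracture DRG, the *Hspa5* level of female 1, 297 CPM, stood apart from the other 5 libraries, the next of which held 282 CPM. The gap was 0.67 of the group's range, above Dixon's critical value for 6 samples. Of 30 groups of libraries checked, 1 was picked out, and chance alone picks out about 1 in 20. Fracture female 1 stayed inside the sham range of 272 to 366 CPM.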

How the results depend on the processing

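In both comparisons with sham, the log2 fold changes of all 10 genes kept their sign in all 22 alternatives, while their size and the counts of called genes depended on the setting. Without sham females 1 and 2, the median of the 3 cytosolic genes went from -1.05 to -0.65 after fracture and from -1.08 to -0.70 with PDX, and that of the 7 ER genes from -0.12 to -0.05 and from -0.15 to -0.09. For fracture against sham (3 of 10, 603 of all genes), the count was 5 with DESeq2 (1506 of all genes) and 5 with all 18 libraries in one fit (814), 1 with limma on log2(FPKM + 1) (437) or log2(FPKM + 0.1) (427), 0 without sham females 1 and 2 (23), and 0 to 5 with a library left out (213 to 710). For fracture plus PDX against sham (5 of 10, 925 of all genes), it was 7 with DESeq2 (1627), 3 without the sex term (825), 2 without sham females 1 and 2 (300), and 1 to 6 with a library left out (498 to 1008). With a replicate block of mice of the same sex and number, 0 of 10 genes (118 of all genes) and 2 of 10 (486 of all genes) were called. Same-numbered mice correlated between -0.163 and 0.346, and 1, 3 and 1 of 6 pairs lay over 0.1. Between fracture plus PDX and fracture these were the 3 male pairs (r of 0.346, 0.231 and 0.253). The female pairs there had r of -0.00603, -0.136 and -0.163. The labels do not say what the numbers mean, so the main fits did not take them as pairs, and a batch shared by same-numbered males was not tested. For sex (0 of 10, 62 of all genes), DESeq2 called 3 (327) and leaving out a library gave 0 to 1 (24 to 86).

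Signs turned only near 0. Between fracture plus PDX and fracture, *Calr* was -0.00196 without a filter on low counts and -0.00467 and -0.00471 with limma (pseudocounts 1 and 0.1), and the fits with a library left out ran from -0.0327 to 0.00779 for *Hspa5*, -0.0264 to 0.00762 for *Hsp90b1*, -0.0106 to 0.0145 for *Calr*, -0.0372 to 0.00734 for *Atf4*, -0.0223 to 0.059 for *Ddit3*, -0.0706 to 0.0265 for *Hspa1a* and -0.0401 to 0.0305 for *Dnajb1*. With a library left out, the interaction of sex with fracture of *Hspa1a* ran from -1.09 to -0.53, the sex difference of *Ddit3* ran from -0.0452 to 0.00759 and its interaction of sex with PDX from -0.0915 to 0.0958. The interaction of sex with fracture ran from -0.0802 to 0.0517 for *Hsp90b1* (0.00772 without a filter), -0.00117 to 0.0685 for *Calr* and -0.0124 to 0.0900 for *Atf4*.

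Of the 7 relations, 6 lost their call without the 2 libraries farthest from the median, and the same values came without sham females 1 and 2, with r of 0.506 (*Hspa1a* with *Hspa1b*), 0.508 (*Hspa1b* with *Dnajb1*), 0.402 (*Hspa5* with *Hsp90b1*), 0.614 (with *Pdia4*), 0.66 (with *Xbp1*) and 0.627 (with *Hspa1b*). Within sex and group, 5 lost it, at 0.76, 0.73, 0.805, 0.63 and 0.26 in the same order. The cause of these moves was not tested. At the depth given, every member had at least 1110 counts in each library.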
